A study of Homo sapiens with 9 samples.

Results

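The heat shock chaperone genes examined here were HSF1, the transcription factor of the heat shock response, together with the chaperone and co-chaperone genes HSPA8, HSP90AA1, HSP90AB1, HSPH1, DNAJB1, HSPB1, HSPD1, HSPE1 and BAG3. They were chosen by gene symbol, as 10 of the 58920 genes listed in each count table, and all 10 were among the 19102 genes tested. RNA was measured in LIM1215, a RAS wild-type colorectal cancer cell line, and in its cetuximab-resistant derivatives LIM1215-R1 and LIM1215-R2. In a subpopulation of each derivative the study detected an activating HRAS mutation, a different one in each line. Both derivatives are mixed cell populations rather than clones, selected separately from LIM1215-parental cells in rising concentrations of cetuximab, an antibody against the epidermal growth factor receptor, while LIM1215-parental cells were passaged alongside without the antibody. All 3 lines were harvested untreated from serum-containing RPMI medium, and 3 libraries were sequenced per line. The study describes the libraries of a line as technical replicates, so the p-values measure the spread between these libraries only, and a difference between lines cannot be told apart from a difference between their cultures.

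Heat shock proteins keep other proteins folded. HSP70 proteins bind unfolded stretches with the help of J-domain co-chaperones and release them with the help of exchange factors, HSP90 proteins act later on signalling clients such as kinases and receptors, chaperonins enclose proteins in a barrel, and small heat shock proteins hold unfolded proteins in solution. HSF1 is held inactive by chaperones in unstressed cells and binds heat shock elements, inverted repeats of the bases GAA, in the promoters of many chaperone genes when misfolded proteins accumulate. Cancer cells are known for high levels of these chaperones without external stress.

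The libraries held between 13737416 and 18725014 counts in genes, with TMM factors from 0.984 to 1.02, and 3 counts in a library amounted to 0.158 to 0.217 CPM, the unit used here for counts scaled to the effective size of a library. Of 9 colorectal epithelium markers, 8 reached 1 CPM in every line, while KRT20 had 0 counts in every library. The summed level of these markers was 12145 to 12507 CPM in LIM1215-parental, 15487 to 15769 CPM in LIM1215-R1 and 14026 to 14433 CPM in LIM1215-R2. The sum was mostly the keratins KRT8 and KRT18, which with VIL1 were called higher in both resistant lines, whereas EPCAM, CDX1, CDX2 and LGALS4 were called lower in both, CDX1 by log2 fold changes of -0.85 and -0.65, and CDH1 stood at -0.14 and -0.12. The part of these shifts in the results that follow was not tested. Fibroblast markers summed to at most 3.19 CPM in any library, endothelial markers to at most 0.722 CPM and leukocyte markers to 7.32 to 14.7 CPM, nearly all of it CD68. Libraries also differed in a trend of level on GC content. Over 12076 genes, the log2 level shifted per 10 percentage points of GC by -0.106, 0.010 and -0.080 in the LIM1215-parental libraries, by -0.002, 0.128 and 0.056 in those of LIM1215-R1 and by -0.029, -0.022 and 0.046 in those of LIM1215-R2. LIM1215-R1 replicate 2 thus had the steepest trend, and LIM1215-parental replicates 1 and 3 leaned the other way.

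The chaperone genes were mostly higher in the cetuximab-resistant lines than in LIM1215-parental cells, by modest amounts for the abundant chaperones and by about 3-fold for HSPB1. Together the 10 genes took 10590, 10015 and 10321 CPM in the LIM1215-parental libraries, 12563, 11633 and 12142 CPM in those of LIM1215-R1 and 12315, 12532 and 12236 CPM in those of LIM1215-R2. Every resistant library thus lay above every parental one, and the genes made up 1.04% ± 0.0309 (SD, n = 3) of all counts in LIM1215-parental, 1.20% ± 0.0496 (SD, n = 3) in LIM1215-R1 and 1.24% ± 0.0168 (SD, n = 3) in LIM1215-R2. HSPA8, HSP90AA1, HSP90AB1 and HSPD1 held 94.2% to 94.9% of this sum, so the sum mainly describes these 4 genes. In bulk RNA, a higher level in each cell and a larger share of cells with a high level cannot be told apart.

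A gene was called where its p, taken from the quasi-likelihood test of edgeR and adjusted by the Benjamini-Hochberg method over all 19102 genes, was at most 0.01. Every adjusted p given here is from that test unless another is named. In LIM1215-R1 against LIM1215-parental, 6 of the 10 genes were called higher and 0 lower, with 9 at an unadjusted p under 0.05, beside 14.0% of all genes tested that were higher and 13.4% that were lower. In LIM1215-R2 against LIM1215-parental, 8 of 10 were called higher and 0 lower, with 8 at an unadjusted p under 0.05, beside 12.3% higher and 11.6% lower among all genes. Since abundant genes are called more often, the background was also taken among the 9303 genes that averaged 10 CPM or more over the libraries, a group that all 10 genes belong to. There it was 20.3% higher and 20.3% lower in LIM1215-R1, and 18.2% higher and 16.9% lower in LIM1215-R2. HSPA8, HSP90AB1, DNAJB1, HSPB1 and BAG3 were called higher in both resistant lines, which share the parental control libraries. The median log2 fold change of the 10 genes was 0.27 in each comparison, beside -0.01 and -0.0037 over all genes tested.

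Only HSPB1 also passed an absolute log2 fold change of 1.5, which 5.14% of all genes tested did in LIM1215-R1 and 4.82% in LIM1215-R2. By the ranges of the libraries, 5 of the 10 genes lay above LIM1215-parental without overlap in LIM1215-R1 and 8 in LIM1215-R2, beside 21.6% and 21.2% of all genes tested. The remaining genes overlapped with LIM1215-parental, and in both comparisons 0 of the 10 lay below it without overlap.

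**Figure D1:**
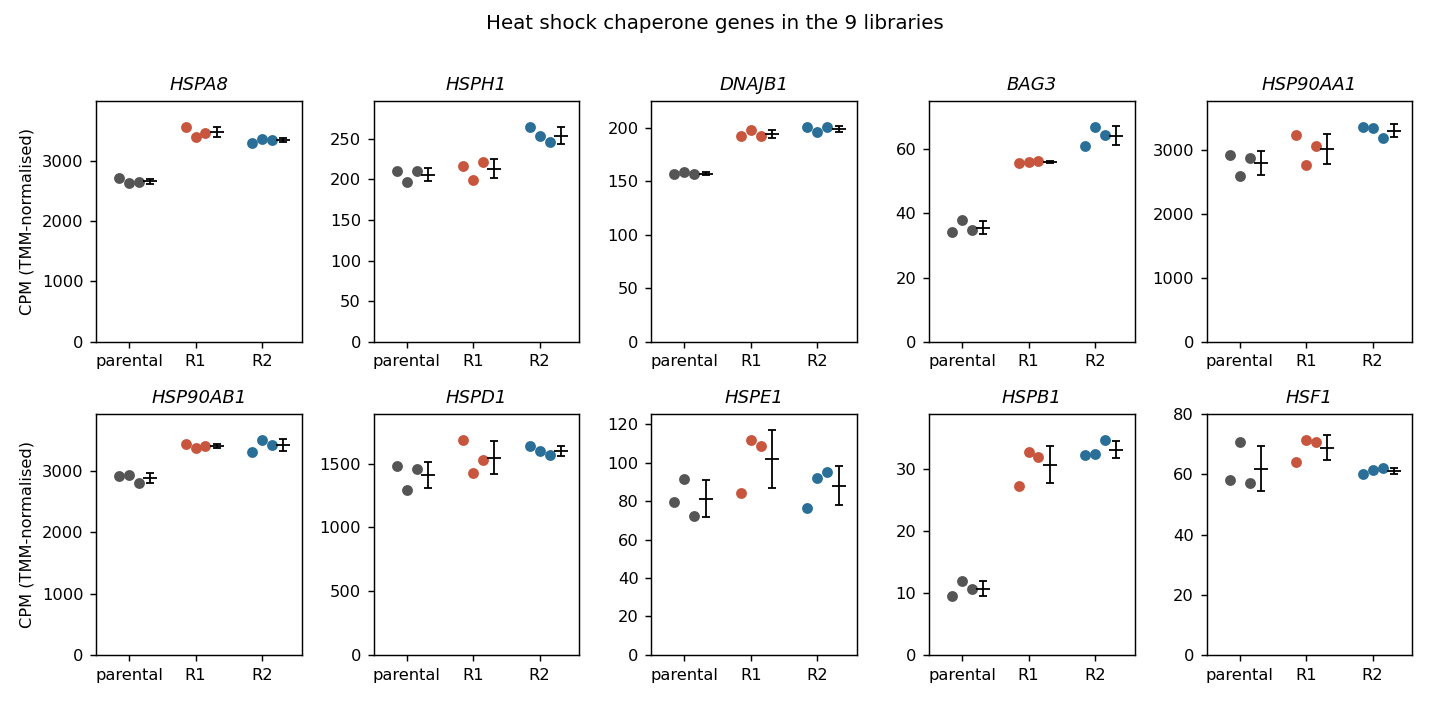
Level of each of the 10 genes in the 9 libraries, in TMM-normalised CPM on a linear axis that starts at 0, with one point per library and the mean and SD of 3 libraries beside them. HSPB1 and BAG3 show the widest gaps between LIM1215-parental and both resistant lines, whereas for HSF1 and HSPE1 both resistant lines overlap with LIM1215-parental.

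Heat shock elements were looked for in the promoters of these genes, in RefSeq windows of GRCh38.p14 that run from 250 bases before to 50 bases after an annotated start site. The searched motifs were 3 alternating units, GAANNTTCNNGAA or TTCNNGAANNTTC, which are each other's reverse complement, and 2 units, GAANNTTC or TTCNNGAA, which each equal their own reverse complement. Every match to 3 units also contains both motifs of 2 units. Of the 10 genes, 9 had a window and HSF1 had none. Windows of HSPA8, HSP90AA1, HSP90AB1 and HSPD1, the 4 most abundant genes, held 3 units, a motif found in 172 of 35116 windows of all genes (0.49%). Windows of HSPB1 and DNAJB1 held 2 units only, while those of HSPE1, HSPH1 and BAG3 held no match. The match of HSPD1 also lies upstream of the neighbouring gene HSPE1, outside the window of that gene. GAANNTTC was present in 6.77% and TTCNNGAA in 7.74% of all windows. The stretches are shown to give the place of matches, and the part of these motifs in the differences between lines was not tested. They are printed 5′ to 3′ on the strand of the gene, with the match in capitals, and a match describes letters and not a bound site. Distances are counted from the start site of the window. It is the start of the annotated gene for HSPB1, but lies inside the gene for the other 5, by 326 bases for HSPA8, 434 for HSPD1, 1749 for HSP90AB1, 41994 for DNAJB1 and 52705 for HSP90AA1. Both stretches of HSPA8 and that of HSPD1 thus lie downstream of the outermost start, and all their bases are within exons of annotated transcripts on the same strand, though 0 are in the canonical transcript.
HSPA8 (chr11:123062347-123062373, minus strand, 230 bases before the window's start site): cgagcttGAAAGTTCCAGAAcgctgcg
HSPA8 (chr11:123062172-123062198, minus strand, 55 bases before the window's start site): gggccccTTCTGGAAGGTTCtaagata
HSP90AA1 (chr14:102087113-102087139, minus strand, 88 bases before the window's start site): agggttcTTCCGGAAGGTTCgggaggc
HSP90AB1 (chr6:44247771-44247797, plus strand, 165 bases before the window's start site): gagcaggTTCTGGAAGATTCatgggct
HSP90AB1 (chr6:44247824-44247850, plus strand, 112 bases before the window's start site): gagattgTTCTGGAAGCTTCtggattc
HSPD1 (chr2:197500061-197500090, minus strand, 245 bases before the window's start site): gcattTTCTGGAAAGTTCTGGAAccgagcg
HSPB1 (chr7:76302484-76302505, plus strand, 182 bases before the window's start site): aacgagaGAAGGTTCcagatga
DNAJB1 (chr19:14518460-14518481, minus strand, 77 bases before the window's start site): cggggcgGAAGGTTCtggaggg
DNAJB1 (chr19:14518430-14518451, minus strand, 47 bases before the window's start site): ggctctgGAAGCTTCcgccgga

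HSPA8 encodes the constitutive cytosolic HSP70 protein, which folds new proteins and feeds chaperone-mediated autophagy, and lies on the minus strand at chr11:123057489-123062462. Its level was 2713, 2629 and 2642 CPM in LIM1215-parental, 3568, 3401 and 3456 CPM in LIM1215-R1 and 3302, 3369 and 3350 CPM in LIM1215-R2. All resistant libraries lay above all parental ones, and LIM1215-R1 lay above LIM1215-R2 without overlap. HSPA8 rose 1.31-fold in LIM1215-R1 (log2 fold change 0.38, SE 0.0303, adjusted p = 4.56e-11) and 1.25-fold in LIM1215-R2 (log2 fold change 0.33, SE 0.0302, adjusted p = 1.10e-09). The gap between the resistant lines was not called (log2 fold change of LIM1215-R2 against LIM1215-R1 -0.06, 95% interval -0.12 to 0.0049, adjusted p = 0.251).

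DNAJB1, the J-domain protein that stimulates HSP70 and an early target of HSF1, lies on the minus strand at chr19:14514769-14560391. It showed little spread within lines, with 157, 159 and 157 CPM in LIM1215-parental, 192, 198 and 192 CPM in LIM1215-R1 and 201, 196 and 200.4 CPM in LIM1215-R2. The resistant libraries lay above the parental ones without overlap, and the resistant lines overlapped with each other. DNAJB1 rose by 0.30 on the log2 scale in LIM1215-R1 (SE 0.0444, adjusted p = 3.93e-06) and by 0.34 in LIM1215-R2 (SE 0.0444, adjusted p = 5.85e-07). Between the resistant lines the log2 difference was 0.04 (95% interval -0.05 to 0.13, adjusted p = 0.660).

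HSPH1 encodes an HSP110 protein, a relative of HSP70 that acts as its exchange factor and dissolves aggregates, at chr13:31134973-31162388 on the minus strand. It was the only one of the 10 genes that was called between the resistant lines. Its level was 210.1, 197 and 210.1 CPM in LIM1215-parental, 217, 199.8 and 222 CPM in LIM1215-R1 and 265, 253 and 246 CPM in LIM1215-R2. LIM1215-R2 thus lay above both other lines, which overlapped. HSPH1 rose in LIM1215-R2 against LIM1215-parental (log2 fold change 0.31, SE 0.0487, adjusted p = 1.23e-05), whereas the log2 fold change in LIM1215-R1 was 0.05 (95% interval -0.05 to 0.15, adjusted p = 0.498). The direct difference of LIM1215-R2 against LIM1215-R1 was 0.26 (SE 0.0487, adjusted p = 0.000523). Without LIM1215-R2 replicate 1 it was 0.23 and was no longer called, with an adjusted p of 0.0106.

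BAG3, an HSP70 exchange factor that directs clients to autophagy, lies at chr10:119651380-119677819 on the plus strand. Its level was 34.2, 38.0 and 34.7 CPM in LIM1215-parental, 55.6, 56.0 and 56.4 CPM in LIM1215-R1 and 61.2, 67.1 and 64.4 CPM in LIM1215-R2. The 3 lines were ordered without overlap, from LIM1215-parental to LIM1215-R2. BAG3 rose 1.58-fold in LIM1215-R1 (log2 fold change 0.66, SE 0.0643, adjusted p = 3.46e-09) and 1.81-fold in LIM1215-R2 (log2 fold change 0.85, SE 0.0637, adjusted p = 1.56e-11). The log2 difference between the resistant lines, 0.20 (95% interval 0.07 to 0.32), did not pass the threshold, with an adjusted p of 0.0313.

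HSP90AA1 and HSP90AB1 encode the inducible and the constitutive cytosolic HSP90 protein, which stabilise client kinases and receptors. HSP90AB1, at chr6:44246194-44253883 on the plus strand, had 2923, 2938 and 2799 CPM in LIM1215-parental, 3436, 3372 and 3401 CPM in LIM1215-R1 and 3314, 3509 and 3427 CPM in LIM1215-R2. Both resistant lines lay above LIM1215-parental and overlapped with each other. HSP90AB1 rose by 0.24 on the log2 scale in LIM1215-R1 (SE 0.0312, adjusted p = 6.28e-07) and by 0.24 in LIM1215-R2 (SE 0.0312, adjusted p = 4.17e-07). The log2 difference between the resistant lines was 0.01, with a 95% interval of -0.06 to 0.07.

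HSP90AA1, at chr14:102080742-102139749 on the minus strand, had 2925, 2590 and 2883 CPM in LIM1215-parental, 3233, 2768 and 3073 CPM in LIM1215-R1 and 3369, 3354 and 3194 CPM in LIM1215-R2. Replicate 2 was the lowest library of both LIM1215-parental and LIM1215-R1, and these lines overlapped, while LIM1215-R2 lay above LIM1215-parental without overlap. HSP90AA1 rose in LIM1215-R2 (log2 fold change 0.24, SE 0.0452, adjusted p = 0.000118). In LIM1215-R1 the log2 fold change was 0.11 (95% interval 0.02 to 0.20) and was not called, with an adjusted p of 0.0557. It was called in 5 of 19 alternatives, among them without LIM1215-R1 replicate 2, at 0.17 (adjusted p = 0.000929). The log2 difference of LIM1215-R2 against LIM1215-R1 was 0.13 (95% interval 0.04 to 0.22, adjusted p = 0.0617), and it was called without LIM1215-R1 replicate 1, at 0.18 (adjusted p = 0.00515). The ratio of HSP90AA1 to HSP90AB1 counts was 0.971 ± 0.0786 (SD, n = 3) in LIM1215-parental, 0.888 ± 0.0615 (SD, n = 3) in LIM1215-R1 and 0.968 ± 0.0436 (SD, n = 3) in LIM1215-R2, and the libraries of all lines overlapped in it.

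HSPD1 and HSPE1 encode the mitochondrial chaperonin HSP60 and its co-chaperonin lid HSP10. They stand head to head on chromosome 2, HSPD1 at chr2:197486584-197500274 on the minus strand and HSPE1 at chr2:197500379-197503449 on the plus strand, with 104 bases between their outermost start sites. HSPD1 had 1480, 1290 and 1455 CPM in LIM1215-parental, 1686, 1423 and 1531 CPM in LIM1215-R1 and 1634, 1599 and 1563 CPM in LIM1215-R2. As for HSP90AA1, replicate 2 was the lowest library of LIM1215-parental and of LIM1215-R1, LIM1215-R1 overlapped with LIM1215-parental and LIM1215-R2 lay above it. HSPD1 was called in LIM1215-R2 (log2 fold change 0.18, SE 0.0491, adjusted p = 0.00464). The call was kept in 14 of 19 alternatives, among them with GC and length trends removed, at 0.20 (adjusted p = 3.95e-07). It was lost at 0.12 (adjusted p = 0.0328) when LIM1215-parental replicate 2 was left out, at 0.17 (adjusted p = 0.0319) when replicate 1 of LIM1215-R2 was, and at 0.18 (adjusted p = 0.0228) when replicate 2 of that line was. Scaling to total counts (adjusted p = 0.0107) and a filter of 10 counts in each library (adjusted p = 0.0115) ended it too. In LIM1215-R1 the log2 fold change of 0.13 (95% interval 0.03 to 0.24) was not called (adjusted p = 0.0321), but it was in 6 of 19 alternatives, among them without LIM1215-R1 replicate 2, at 0.19 (adjusted p = 0.00112).

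HSPE1 had 79.8, 91.7 and 72.5 CPM in LIM1215-parental, 84.3, 112 and 109 CPM in LIM1215-R1 and 76.5, 92.3 and 95.2 CPM in LIM1215-R2. The libraries of all 3 lines overlapped. HSPE1 was called higher in LIM1215-R1 (log2 fold change 0.33, SE 0.0897, adjusted p = 0.00491), and its log2 fold change in LIM1215-R2 was 0.12 (95% interval -0.07 to 0.30, adjusted p = 0.370). The call in LIM1215-R1 was lost in 8 of 19 alternatives. Those leaving out a library gave adjusted p-values of 0.0181 without LIM1215-parental replicate 1, 0.0496 without LIM1215-parental replicate 3, 0.0270 without LIM1215-R1 replicate 2 and 0.0462 without LIM1215-R1 replicate 3, and DESeq2's Wald test gave 0.0745. The log2 difference of LIM1215-R2 against LIM1215-R1 was -0.21 (adjusted p = 0.137), and it was called at -0.33 without LIM1215-R1 replicate 1 (adjusted p = 0.00356). The annotated HSPE1 transcript shares 192 of its 557 bases (34.5%) on the same strand with the readthrough gene HSPE1-MOB4, whose row had 0 counts in every library, so the HSPE1 row may hold only part of its reads.

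HSPB1 encodes HSP27, a small heat shock protein that holds unfolded proteins and binds actin filaments, at chr7:76302673-76304292 on the plus strand. It showed the largest difference among the 10 genes in both comparisons. Its level was 9.56, 11.9 and 10.6 CPM in LIM1215-parental, 27.3, 32.8 and 31.9 CPM in LIM1215-R1 and 32.3, 32.4 and 34.7 CPM in LIM1215-R2. The lowest resistant library was thus above the highest parental one, and the resistant lines overlapped with each other. HSPB1 rose 2.88-fold in LIM1215-R1 (log2 fold change 1.53, 95% interval 1.33 to 1.72, SE 0.0954, adjusted p = 3.83e-13) and 3.11-fold in LIM1215-R2 (log2 fold change 1.64, 95% interval 1.44 to 1.83, SE 0.0946, adjusted p = 7.27e-14). Both intervals include the limit of 1.5, and in LIM1215-R1 the log2 fold change fell below it without LIM1215-parental replicate 1 (1.45), without LIM1215-R1 replicate 2 (1.48) and, by less than 0.01, without LIM1215-R1 replicate 3, with HSPB1 still called higher. The log2 difference between the resistant lines was 0.11 (95% interval -0.06 to 0.28, adjusted p = 0.450).

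HSF1 itself, at chr8:144291604-144314720 on the plus strand, was not called in any of the 3 comparisons. Its level was 58.1, 70.6 and 57.0 CPM in LIM1215-parental, 64.0, 71.5 and 70.8 CPM in LIM1215-R1 and 60.2, 61.3 and 62.2 CPM in LIM1215-R2. LIM1215-parental replicate 2 stood above its other replicates, and both resistant lines overlapped with LIM1215-parental. The log2 fold change was 0.16 in LIM1215-R1 (95% interval 0.01 to 0.30, adjusted p = 0.0816) and -0.01 in LIM1215-R2 (95% interval -0.16 to 0.13, adjusted p = 0.937). Without LIM1215-parental replicate 2 it was 0.26 in LIM1215-R1 and was called (adjusted p = 0.00170). LIM1215-R2 lay below LIM1215-R1 without overlap, by a log2 difference of -0.17 that was not called (adjusted p = 0.125). The activity of HSF1 is set largely by its location and modification, which RNA levels do not measure.

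**Figure D2:**
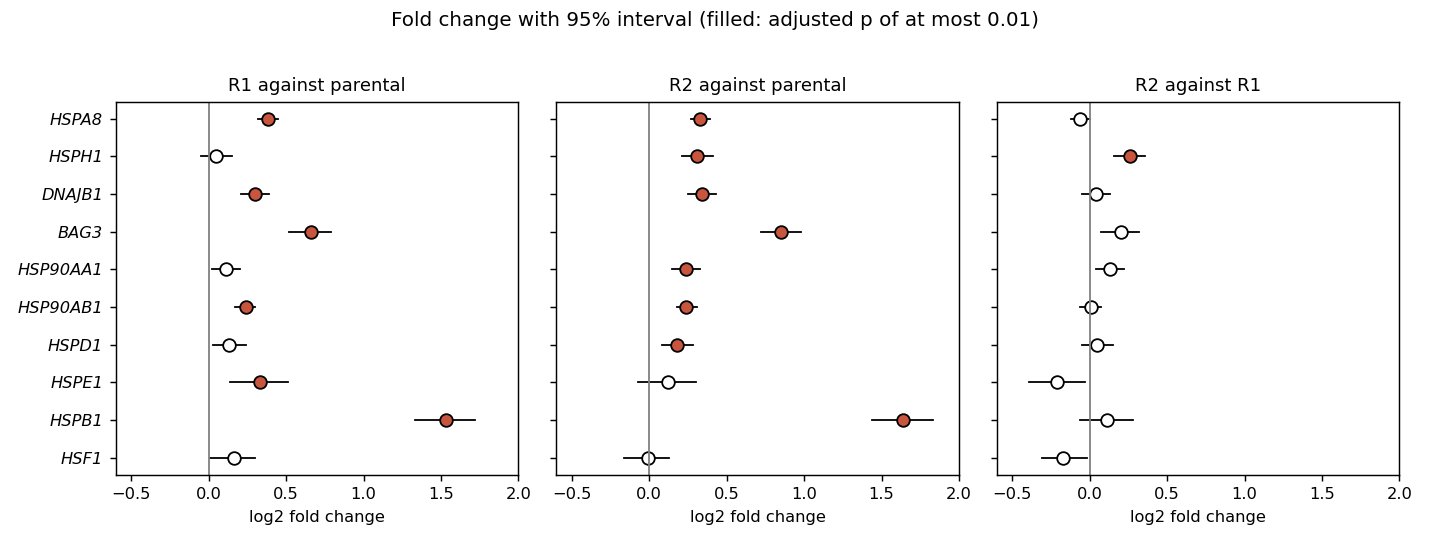
Log2 fold change of each gene with its 95% interval in the 3 comparisons, filled where the adjusted p was at most 0.01. HSPB1 stands at 1.53 and 1.64 and BAG3 at 0.66 and 0.85 in the resistant lines, and only HSPH1 is filled in the comparison between the resistant lines.

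Between the resistant lines, 1 of the 10 genes was called higher in LIM1215-R2 and 0 lower, beside 3.39% of all genes tested that were higher, 3.77% that were lower and 0.764% that also passed an absolute log2 fold change of 1.5. Among genes of at least 10 CPM these shares were 5.78% higher and 5.30% lower. HSPH1 and BAG3 lay higher and HSPA8 and HSF1 lower in LIM1215-R2 than in LIM1215-R1 without overlap, beside 14.0% of all genes tested in each direction. The count for the 10 genes moved between 0 and 3 when single libraries were left out, with 0 without LIM1215-R2 replicate 1 and 3 without LIM1215-R1 replicate 1. Calls over all genes were then 752 and 1558, beside 1368 with all libraries.

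Per kilobase of transcript, the genes fell into an abundant and a scarce group. In LIM1215-parental, HSPA8 had 1176 ± 19.8 CPM per kilobase (SD, n = 3), HSP90AB1 1130 ± 29.8, HSP90AA1 867 ± 56.6 and HSPD1 627 ± 45.9, each above the next without overlap. HSPE1 followed with 146 ± 17.3 CPM per kilobase over its whole transcript, or 223 ± 26.5 over the 365 bases that it does not share with HSPE1-MOB4, which keeps its place in the order. DNAJB1 stood at 70.2 ± 0.511, HSPH1 at 39.2 ± 1.43 and HSF1 at 29.0 ± 3.54 CPM per kilobase, also without overlap. BAG3 with 13.9 ± 0.809 and HSPB1 with 13.8 ± 1.52 CPM per kilobase were the lowest and overlapped with each other. HSPB1 reached 39.5 ± 3.81 CPM per kilobase in LIM1215-R1 and 42.7 ± 1.72 in LIM1215-R2, above BAG3 and HSF1 in the same lines. The 7 genes from HSPA8 to HSPH1 kept their order in both, although HSPH1, at 40.6 ± 2.21 CPM per kilobase, overlapped with HSPB1 in LIM1215-R1.

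**Figure D3:**
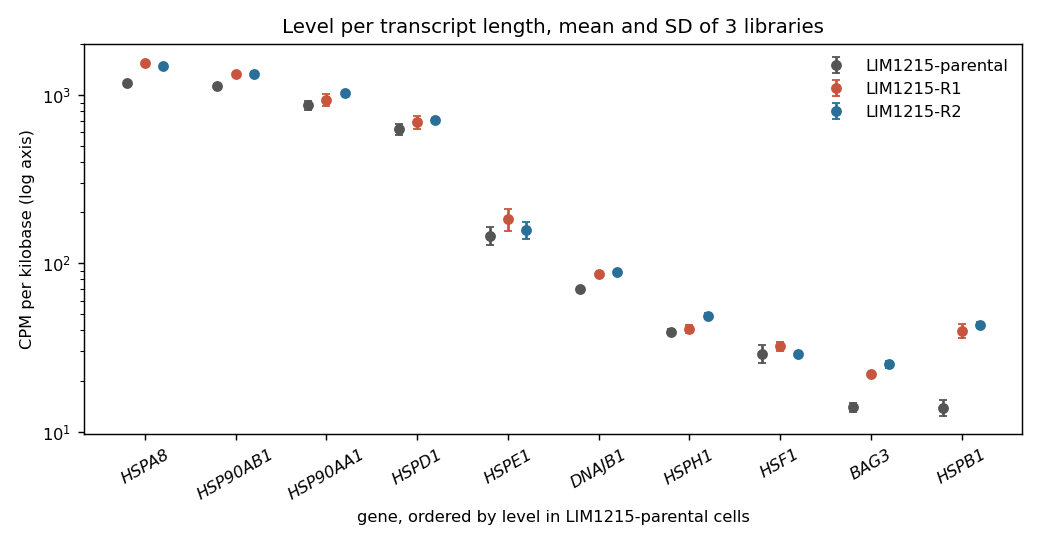
Level of the 10 genes per kilobase of transcript in each line, as mean and SD of 3 libraries on a log axis, ordered by the level in LIM1215-parental. HSPB1 moves from 13.8 CPM per kilobase, level with BAG3, to 39.5 and 42.7 in the resistant lines.

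The 10 genes differ in GC content, from 39.3% for HSPE1 and 39.6% for HSPH1 to 63.9% for HSF1 and 65.3% for HSPB1, and the libraries differed in their trend on it. The fold changes were therefore also computed after trends on GC content and transcript length had been removed from each library. The differences of the GC-rich genes then became smaller in LIM1215-R1, with log2 values of 1.29 for HSPB1 and 0.52 for BAG3, both still called, and of -0.07 for HSF1 (adjusted p = 0.302). Those of HSPH1 (0.15, adjusted p = 0.000225), HSP90AA1 (0.14, adjusted p = 3.89e-05) and HSPD1 (0.16, adjusted p = 2.12e-05) in LIM1215-R1 were called under this setting. Thus 9 of the 10 genes were called higher there and 8 in LIM1215-R2. Over all genes, higher calls went from 2667 to 2831 in LIM1215-R1 and from 2344 to 2792 in LIM1215-R2. Lower calls went from 2555 to 3393 and from 2210 to 3018. In LIM1215-R2 the log2 fold change of HSPB1 was 1.52 and that of HSF1 -0.15 (adjusted p = 0.0144). Between the resistant lines HSPB1 (0.24, adjusted p = 0.00840), BAG3 (0.26, adjusted p = 0.000141), HSP90AA1 (0.11, adjusted p = 0.00365) and HSPH1 (0.19, adjusted p = 5.60e-05) were called higher in LIM1215-R2. Over all genes, calls between the resistant lines went from 1368 to 1900 with trends removed. The cause of the trends was not tested.

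**Figure D4:**
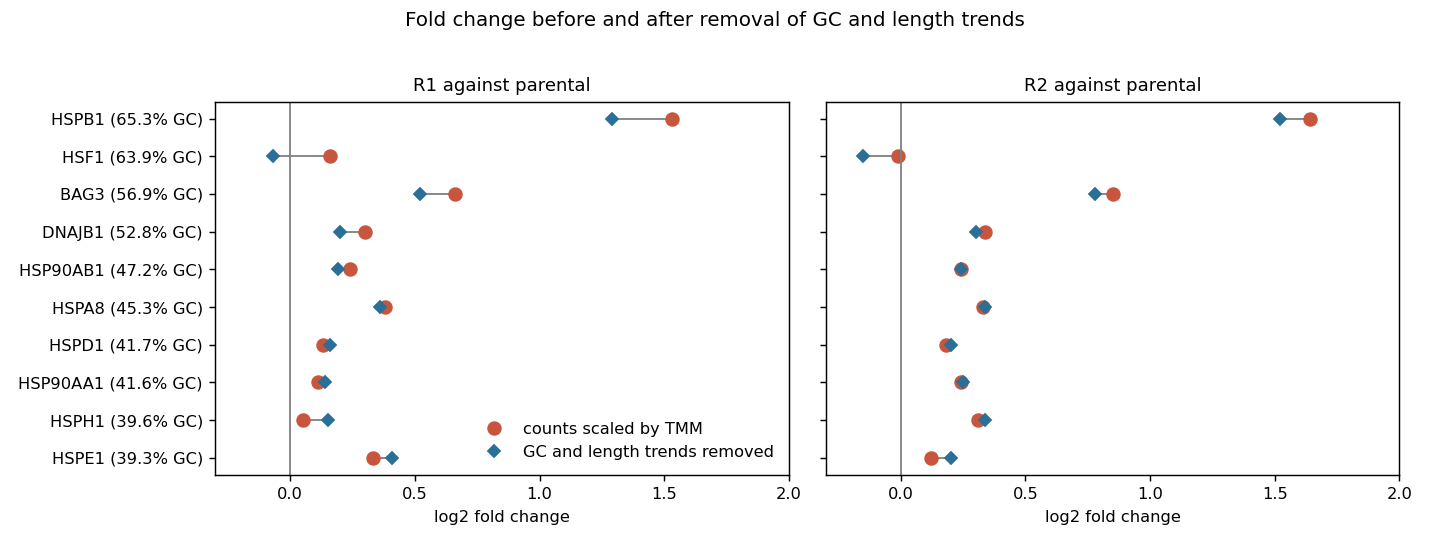
Log2 fold change of the 10 genes against LIM1215-parental, ordered by GC content, with counts scaled by TMM (circles) and after removal of trends on GC content and length (diamonds). In LIM1215-R1 the most GC-rich genes move down, HSPB1 from 1.53 to 1.29 and HSF1 from 0.16 to -0.07, while HSPH1 moves up from 0.05 to 0.15.

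Reads could also be shared with near-identical copies. Rows of pseudogenes named after the 10 genes together held at most 2.14% of the counts of their parent gene, a share reached for HSPE1, and at most 0.860% for the others. These counts cannot show how many reads were shared, as the handling of reads that map to several places was not given. Of the 100-base exon stretches of the 10 genes, 0.0% were found again in the alternate sequences of hg38. This was not so for the stress-inducible HSP70 genes HSPA1A and HSPA1B, the classical heat shock genes, which had 0 and 19 counts over the 9 libraries. For them 95.7% and 95.9% of such stretches had a copy in the alternate sequences, as did all stretches of BAG6 and PFDN6, with 25 and 0 counts, and the part of these copies in the low counts was not tested. HSPA6, a strictly inducible HSP70 gene whose row held 16 counts over the 9 libraries, the small heat shock genes CRYAB with 12 and HSPB8 with 5 were also near the lower limit of detection. No level of inducible HSP70 is given here for that reason.

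The other chaperone genes were taken from 9 lists of 123 genes, of which 110 were tested. In LIM1215-R1, 35 of 110 were called higher and 8 lower, and in LIM1215-R2 34 were called higher and 3 lower, with median log2 fold changes of 0.12 and 0.11. These are 31.8% higher and 7.27% lower in LIM1215-R1, beside 14.0% and 13.4% of all genes tested, and 30.9% and 2.73% in LIM1215-R2, beside 12.3% and 11.6%. Of the 110 genes 93 averaged 10 CPM or more, where the shares of all genes were 20.3% and 20.3% in LIM1215-R1 and 18.2% and 16.9% in LIM1215-R2. In both resistant lines 26 genes were called higher and 1 lower. One list held the cytosolic chaperonin TRiC, which folds actin and tubulin, and its partner prefoldin. Of its 13 tested genes, 8 were called higher in LIM1215-R1 and 7 in LIM1215-R2 (61.5% and 53.8%) and 0 lower. All 13 averaged 10 CPM or more. Log2 fold changes ran from -0.16 to 0.42 and from -0.11 to 0.33. CCT4 stood at 0.33 and 0.32 and PFDN2 at 0.42 and 0.33. The call of PFDN2 in LIM1215-R2 was lost without LIM1215-parental replicate 3 and without LIM1215-R2 replicate 3, with adjusted p-values up to 0.0188.

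Many co-chaperones that load clients onto HSP90 or time its cycle were measured too. Of 20 HSP90 paralogues and co-chaperones, 9 were called higher and 3 lower in LIM1215-R1, and 8 higher and 1 lower in LIM1215-R2. NUDC, a chaperone of dynein and kinases, was higher by 0.36 and 0.42 on the log2 scale, and the immunophilin FKBP4 by 0.30 and 0.33. TRAP1, the mitochondrial HSP90, was called at 0.15 (adjusted p = 0.00943) and 0.17 (adjusted p = 0.00441). Its calls were lost in 11 and 6 of 19 alternatives, in both lines with GC and length trends removed and without LIM1215-parental replicate 1 or 3, with adjusted p-values up to 0.993 and 0.0408. FKBP5, a co-chaperone of steroid receptors, had 96 counts over the LIM1215-parental libraries, 2 over those of LIM1215-R1 and 1 over those of LIM1215-R2, which makes it 46.4-fold lower in LIM1215-R1 (exact 95% counting interval 12.5 to 389) and 93.0-fold lower in LIM1215-R2 (interval 16.3 to 3711).

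Among the partners of HSP70, 6 of 37 tested J-domain genes were called higher and 4 lower in LIM1215-R1, and 8 higher and 1 lower in LIM1215-R2. The shares in LIM1215-R1, 16.2% higher and 10.8% lower, were near those of all genes tested (14.0% and 13.4%). In LIM1215-R2 the share called higher was 21.6%, beside 12.3% of all genes tested. Of the 37 genes, 30 averaged 10 CPM or more, where 18.2% of all genes were called higher in LIM1215-R2. The 21.6% was thus near the share among abundant genes. DNAJA4, a cytosolic J-domain protein, had 58.5, 59.3 and 63.0 CPM in LIM1215-parental, 120.4, 121 and 121 CPM in LIM1215-R1 and 133, 129 and 125 CPM in LIM1215-R2. The resistant libraries lay far above the parental ones, at log2 fold changes of 1.00 (adjusted p = 1.19e-14) and 1.10 (adjusted p = 1.55e-15). DNAJB9, a J-domain protein of the endoplasmic reticulum, was higher by 0.83 and 1.20. Only scarce genes were called past a log2 fold change of 1.5 in a single comparison. DNAJB5 had 2 counts in LIM1215-parental and 21 in LIM1215-R2 (10.8-fold higher, exact 95% counting interval 2.65 to 95.3). With 17 counts in LIM1215-R1, DNAJB5 stood at 2.91 there, not called (adjusted p = 0.0170). DNAJC6 stood at 2.62 in LIM1215-R1 (adjusted p = 0.00667) and DNAJC18 at -2.28 in LIM1215-R2 (adjusted p = 0.000218). In the HSP70 list, HSPA2 stood at -1.67 in LIM1215-R2 (adjusted p = 0.00351). The calls of DNAJB5, DNAJC6 and HSPA2 were lost in 7, 7 and 3 of 18 alternatives, each without LIM1215-parental replicate 1 among others, and that of DNAJC18 in 0 of 18. These 4 genes did not pass the filter of the remaining alternative, 10 counts in every library.

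Of 11 tested genes of the HSP70 and HSP110 family, 4 were called higher and 0 lower in LIM1215-R1, and 5 higher and 1 lower in LIM1215-R2. The shares called higher were 36.4% and 45.5%, beside 14.0% and 12.3% of all genes tested. Of the 11 genes, 8 averaged 10 CPM or more, where the shares of all genes were 20.3% and 18.2%. HSPA4L, a relative of HSPH1, rose by 0.55 and 0.48, and HSPA5, the HSP70 protein of the endoplasmic reticulum, by 0.28 and 0.36. HSPA9, the mitochondrial HSP70 and partner of the HSPD1 system, was not called, at 0.08 (adjusted p = 0.0928) and 0.06 (adjusted p = 0.258). Among BAG proteins and other HSP70 exchange or binding factors, 2 of 10 were called higher and 1 lower in LIM1215-R1 and 3 higher and 0 lower in LIM1215-R2. BAG1, a relative of BAG3, rose by 0.39 and 0.35, and GRPEL1, the exchange factor of mitochondrial HSP70, by 0.47 and 0.43. Of 8 genes listed as mitochondrial proteases, 3 were called higher in each line and 0 lower. HTRA2 stood at 0.35 and 0.31 and LONP1 at 0.22 and 0.15. This list also holds CLPX and CLPB, which are not proteases themselves, and CLPB was among the 3 called in LIM1215-R2. The share called higher was 37.5% in each line, beside 14.0% and 12.3% of all genes tested. All 8 averaged 10 CPM or more, where the shares of all genes were 20.3% and 18.2%. In LIM1215-R2 the call of HTRA2 was lost without LIM1215-parental replicate 1 or LIM1215-R2 replicate 3 (adjusted p up to 0.0181). That of LONP1 was lost in 9 of 19 alternatives, at 0.01 with GC and length trends removed, where it was lost in LIM1215-R1 too.

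HSF1 has relatives and regulators of its own, and it also acts on genes that are no chaperones. Of the 3 tested genes among the other HSF family members and HSBP1, 0 were called in either line, with 0 at an unadjusted p under 0.05, and HSF2 stood at -0.04 and -0.06. Of 6 other known HSF1 targets, 3 were called in LIM1215-R1, all higher, and 0 in LIM1215-R2, where 3 had an unadjusted p under 0.05. All genes tested were called higher in 14.0% and 12.3% of cases. Among those of at least 10 CPM, a group that holds 5 of the 6, these shares were 20.3% and 18.2%. The genes called in LIM1215-R1 were UBB, IER5 and ZFAND2A, all named after their values were seen. UBB was higher by 0.32 on the log2 scale there and at -0.08 in LIM1215-R2, and IER5 was higher by 0.43 and at -0.06. ZFAND2A was higher by 0.47 (adjusted p = 0.00799) and stood at 0.41 in LIM1215-R2, not called (adjusted p = 0.0220). ZFAND2A was not followed through the alternatives. Of the 2 tested genes of the other small heat shock proteins 0 were called in either line.

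**Figure D5:**
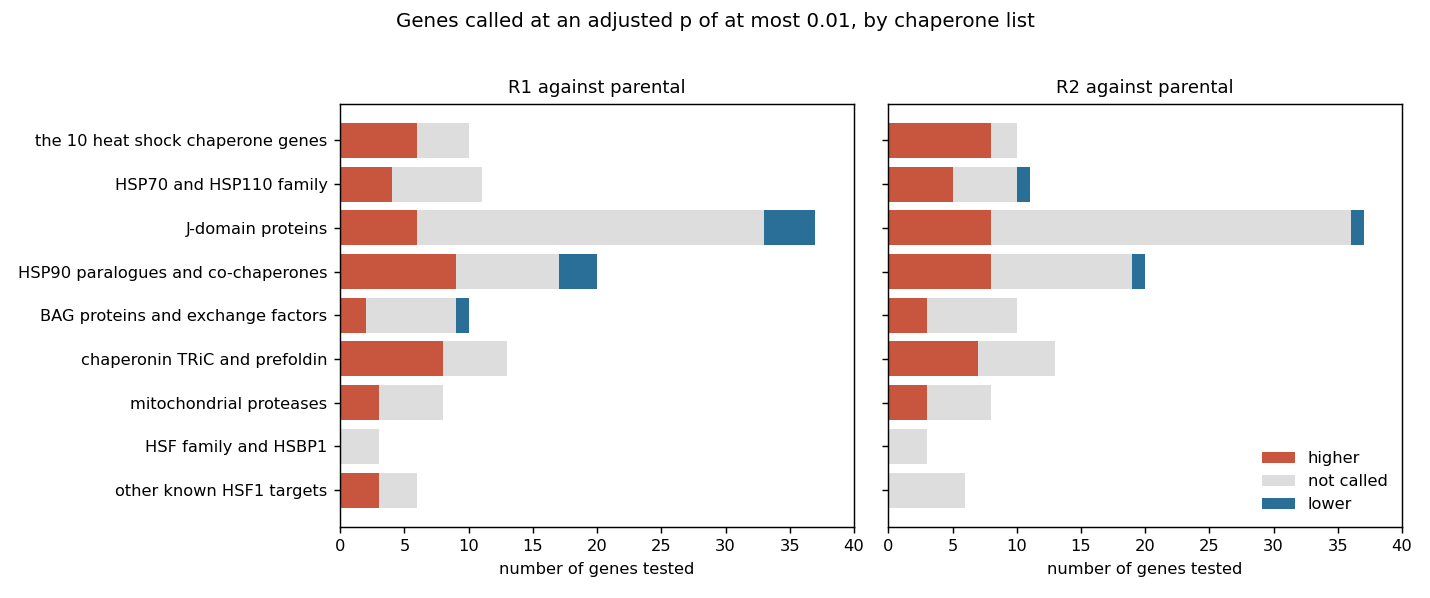
Number of tested genes in each chaperone list that were called higher, lower or not at an adjusted p of at most 0.01, for each resistant line against LIM1215-parental. Calls for TRiC and prefoldin are all higher (8 and 7 of 13), while J-domain proteins are mostly not called.

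Between the resistant lines, 7 of the 110 genes (6.36%) were called higher and 2 (1.82%) lower in LIM1215-R2 than in LIM1215-R1, beside 3.39% and 3.77% of all genes tested and 5.78% and 5.30% of those of at least 10 CPM, so the higher calls were near the share among abundant genes. The 9 genes are named here after their values were seen, apart from HSP90B1 and DNAJB9. Those higher in LIM1215-R2 were HSPA13 by 0.35, HYOU1 by 0.25, DNAJB9 by 0.37, DNAJC3 by 0.22, DNAJC10 by 0.26, DNAJC13 by 0.22 and HSP90B1 by 0.29 on the log2 scale. HSP90B1, the HSP90 protein of the endoplasmic reticulum, had 1451, 1346 and 1450 CPM in LIM1215-parental, 1234, 1055 and 1198 CPM in LIM1215-R1 and 1426, 1427 and 1418 CPM in LIM1215-R2, so that only LIM1215-R1 lay apart, below the others. Those lower in LIM1215-R2 were the HSF1 targets UBB, by a log2 difference of -0.40, and IER5, by one of -0.48. The libraries of IER5 held 31.9, 31.8 and 29.7 CPM in LIM1215-parental, 39.9, 41.2 and 44.1 CPM in LIM1215-R1 and 28.3, 30.4 and 30.8 CPM in LIM1215-R2, with LIM1215-R1 above both other lines. Calls of 4 of the 9 genes (UBB, IER5, HSP90B1 and HYOU1) held in all 19 alternatives. With GC and length trends removed, without or with the replicate block, the calls of DNAJC10 and DNAJC13 were lost, and over all alternatives the difference of DNAJC10 went as low as 0.06 (adjusted p up to 0.286) and that of DNAJC13 as low as 0.14 (adjusted p up to 0.0376). The count of 9 fell to 4 without LIM1215-R1 replicate 2, without LIM1215-R1 replicate 3 or without LIM1215-R2 replicate 1, and to 5 without LIM1215-R2 replicate 2. Calls over all genes fell from 1368 to 1056, 872, 752 and 782 in the same order.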

How the data were processed

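Polyadenylated RNA of the 3 LIM1215 lines was sequenced as stranded paired-end libraries. The authors deposited raw, unnormalized gene counts for each of the 9 libraries, which they obtained with STAR (genome hg38) and htseq-count 0.9.1 from reverse-strand reads. The gene annotation was not given in the sources used here. Libraries were grouped by the titles in the labels, and total counts were 13737416 to 18725014. Genes with at least 10 counts over all libraries were kept, scaled by TMM and fitted in 1 quasi-likelihood model over the 3 lines (R 4.3.3, edgeR 4.0.16). Calls needed an adjusted p of at most 0.01, and the larger changes also a log2 fold change of 1.5 or more in either direction. SEs and 95% intervals follow from the test statistic. CPM values use TMM factors.

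The 10 genes and the lists were chosen with earlier results of these data known, and 1 item of the lists is not reported here. Beside the 10 genes, named ones were set paralogues, up to 2 genes per list and direction called in both lines, and any past 1.5. The background of genes averaging 10 CPM or more was added after seeing the data. Transcript lengths, GC content and positions came from GENCODE for GRCh38, with GC content and length for 86.3% of genes tested, and promoter windows from RefSeq. The code was tested on simulated data. Alternatives were other filters, scalings, DESeq2 1.42.0, fits of 6 libraries, a replicate block, removal of GC and length trends, a threshold of 0.05 and leaving out each library. Intervals of ratios with few counts are exact and cover counting error only.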

Additional observations from a re-analysis of the deposited data

Results flagged for a closer look

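The resistant lines differed directly from each other, by a test of LIM1215-R2 against LIM1215-R1, in 1 of the 10 heat shock chaperone genes, HSPH1, with a log2 difference of 0.26. Of the other chaperone genes, this test flagged differences of 0.29 for HSP90B1, 0.37 for DNAJB9, 0.35 for HSPA13, 0.25 for HYOU1, 0.22 for DNAJC3, 0.26 for DNAJC10 and 0.22 for DNAJC13, all higher in LIM1215-R2. Those of UBB (-0.40) and IER5 (-0.48) were lower in LIM1215-R2. With 3 libraries per line, no group was large enough to look for single libraries far from their group.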

How the results depend on the processing

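For the 10 genes, 519 of 570 values (10 genes, 3 comparisons, 19 alternatives) kept their direction and their side of the threshold, 14 lost a call, 29 gained a call and 8 changed sign. For the other named genes this held for 1118 of 1225 values, with 88 lost, 11 gained and 8 changed in sign. The counts of called genes in each resistant line against LIM1215-parental stayed within 1.5 times of those reported, at 5 to 9 of the 10 genes in LIM1215-R1 and 7 to 10 in LIM1215-R2. The 10, with the replicate block and GC and length trends removed, include HSF1 called lower, at -0.15 (adjusted p = 0.00578). Calls over all genes ran from 4281 to 6962 in LIM1215-R1 and from 3711 to 6219 in LIM1215-R2. With the block alone, HSP90AA1 (0.11, adjusted p = 0.00363) and HSPD1 (0.13, adjusted p = 0.000920) were called in LIM1215-R1. The number of these genes past 1.5 on the log2 scale in LIM1215-R1, which is HSPB1 or none, went from 1 to 0 with total counts only and with GC and length trends removed, without or with the replicate block, and was 0 to 1 without single libraries. Between the resistant lines, the number called was 3 without a filter, 2 with the replicate block, 4 with trends removed and 5 with both. It was 2 at an adjusted p of 0.05 and 0 to 3 without single libraries. That of the wider lists was 17 with block and trends removed, 17 at 0.05 and 4 to 10 without single libraries. Calls over all genes between these lines moved too. They were 1368 as reported, 1742 without a filter, 2044 with the block, 1900 with trends removed and 2366 with both. At 0.05 they were 2478, and without single libraries 752 to 1733. 

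Sign changes affected only values that were not called. With trends removed, without or with the block, HSF1 was at -0.07 and -0.07 and HSF2 at 0.02 and 0.02 in LIM1215-R1. With total counts only, HSP90B1 was at -0.01 in LIM1215-R2, and with at least 10 counts in every library HSP90AB1 was at -0.0035 between the resistant lines. Without single libraries, HSF2 ranged from -0.14 to 0.05 and DNAJC10 from -0.002 to 0.14 in LIM1215-R1, HSF1 from -0.07 to 0.09, HSP90B1 from -0.03 to 0.03 and HSF2 from -0.16 to 0.02 in LIM1215-R2, and HSP90AB1 from -0.01 to 0.03 and HSPD1 from -0.01 to 0.11 between the resistant lines. The cause was not tested. Libraries with the same number deviated together in 4 of 9 pairs (r from -0.14 to 0.34, limit 0.1). Other pairs had r from -0.34 to 0.25, so this check cannot tell whether the numbers pair the libraries. The block moved the calls among all genes from 5222 to 5841, 4554 to 5197 and 1368 to 2044. Other scalings moved the median of all genes by at most 0.034 in either direction. CRYAB, HSPB8, HSPA6 and HSPA1B had 5 to 19 counts over all libraries, too few for a fold change.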
